A study of Homo sapiens with 6 samples.

Results

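The 10 genes described here make, recycle or use glutathione, or belong to the antioxidant response that the transcription factor NRF2 controls: GSTP1, GCLC, GCLM, GSR, GPX1, GPX4, NQO1, HMOX1, NFE2L2 and TXNRD1. They were taken by gene name from the deposited annotation, which holds 58735 genes, and the estimated counts of all their transcripts were summed. Of the 10, 8 had enough counts to be tested, and GPX1 and HMOX1 did not. The libraries were 3 siANXA1 and 3 siControl libraries of cells labelled CCRF-SB, a human B cell acute lymphoblastic leukaemia line, collected on day 5. The siANXA1 cells carried a lentiviral vector that silences ANXA1, were selected with puromycin and bear the genotype label ANXA1 down-regulated. The siControl cells carried an empty vector and bear the label WT. The labels do not say whether replicates were separate cultures, clones or infections, so the p-values below measure only the spread between these libraries, which may be technical.

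Glutathione is a small cysteine-containing peptide that keeps the cytosol reduced. Glutamate-cysteine ligase (GCLC and GCLM) makes its precursor, glutathione reductase (GSR) recycles the oxidised form, glutathione peroxidases (GPX1, GPX4) spend it on peroxides, and transferases such as GSTP1 attach it to electrophiles, among them alkylating drugs. NRF2, encoded by NFE2L2, is held in the cytosol and marked for degradation by KEAP1. Oxidants free it to enter the nucleus and bind antioxidant response elements beside genes such as NQO1, HMOX1, GCLM and TXNRD1, so that its activity is set mainly at the protein level.

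ANXA1 was lower in each siANXA1 library, at 1606, 1723 and 1712 CPM (the usual depth-scaled read count, with library sizes scaled by TMM), than in the siControl libraries, at 3696, 3696 and 3756 CPM. Its log2 fold change of -1.14 ± 0.09 (SE) had an edgeR adjusted p of 0.0571. Counts with a gene ranged from 21333951 to 44148505 per library in siANXA1 and from 34758946 to 41012577 in siControl. The lowest depth was that of siANXA1 replicate 2, and whether depth bears on its values below was not tested. The first principal component, which held 39.9% of variance, crossed the groups: siANXA1 replicates 1 and 3 lay with siControl replicate 3, and siANXA1 replicate 2 lay with siControl replicates 1 and 2. Markers of the labelled cell type were nearly absent, since 15 of 20 B cell markers, CD79A, PAX5 and EBF1 among them, stayed below 1 CPM in every library. Erythroid markers were instead abundant, with summed levels of 6075 to 7463 CPM in siANXA1 and 2163 to 3662 CPM in siControl. Only 2 of 20 were below 1 CPM throughout, so the cells are called by their label here only as a name. TFRC and HBE1 held a large part of these sums. TFRC read 1145, 1813 and 1076 CPM in siANXA1 and 1293, 2116 and 1379 CPM in siControl. HBE1 read 3286, 2140 and 2973 CPM in siANXA1 and 4.74, 637 and 9.82 CPM in siControl. HBG2 read 768, 839 and 880 CPM in siANXA1 and 276, 273 and 532 CPM in siControl. Of 19 erythroid markers tested, edgeR called 0, 17 were positive and 2 negative, and the median log2 fold change was 0.77. The groups did not overlap in 7, all 7 higher in siANXA1, against 14.6% of all genes (7.41% higher). T and NK cell markers summed to 16.1 to 24.5 CPM in siANXA1 and 11.9 to 39.4 CPM in siControl, and myeloid markers to 92.1 to 113 CPM in siANXA1 and 81.7 to 120 CPM in siControl. In such bulk RNA, fewer cells of a type and less RNA per cell cannot be told apart.

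Of the 10 genes, 3 encode selenoproteins, in which a TGA codon inside the reading frame is read as selenocysteine, the residue at the active site. The codon is shown in capitals with its coding neighbours for the main transcripts of GPX4 and TXNRD1, for a second TXNRD1 transcript that the libraries divided on, and for GPX1 (GENCODE release 29, GRCh38, coding strand).
GPX4 ENST00000611653, codon 46: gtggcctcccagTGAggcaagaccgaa
GPX1 ENST00000419783, codon 49: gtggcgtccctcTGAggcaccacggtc
TXNRD1 ENST00000503506, codon 498: caggctggctgcTGAggttaa
TXNRD1 ENST00000526950, codon 567: caggctggctgcTGAggttaa
In both TXNRD1 transcripts the selenocysteine codon is followed by 1 codon and the stop codon, and the printed bases are the same. The annotation gives ENST00000503506 a further 1856 bases after the stop codon and ENST00000526950 only 62. Reading TGA as selenocysteine is known to need a structured element in the region after the stop codon. Whether either annotated transcript holds that element, or whether the shorter annotation is complete at its end, was not tested.

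The NFE2L2 transcripts described below code from 1 of 2 start codons, and ENST00000397062, whose groups did not overlap, uses the earlier one. The first 60 coding bases are shown with the start codon in capitals (GENCODE release 29, GRCh38, minus strand of chromosome 2).
NFE2L2 ENST00000397062: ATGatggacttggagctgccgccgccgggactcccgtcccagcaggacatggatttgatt
NFE2L2 ENST00000397063: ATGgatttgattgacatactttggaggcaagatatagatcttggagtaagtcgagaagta
NFE2L2 ENST00000446151: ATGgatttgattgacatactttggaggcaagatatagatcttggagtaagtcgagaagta
ENST00000397062 codes from the first start codon over 1818 bases. ENST00000397063 begins 48 coding bases further in and then reads the same to its end. ENST00000446151 begins at the same codon as ENST00000397063 and departs from it at codon 119, which leaves 1749 coding bases.

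Levels of different genes were compared per length, as counts per kilobase of transcript in a TMM-scaled CPM library (CPM per kb). GSTP1 was the most abundant of the 10, at 757 ± 75.1 in siANXA1 and 719 ± 66.4 in siControl (SD, n = 3 each). GPX4 came next at 125 ± 9.95 and 147 ± 15.8, followed by GSR at 78.5 ± 9.95 and 72.5 ± 15.9, in the same order of groups. Between these 3 the ranges over the 6 libraries did not overlap. NQO1 (57.1 ± 14.0 in siANXA1 and 61.6 ± 5.00 in siControl), NFE2L2 (43.0 ± 9.88 and 67.4 ± 11.8) and TXNRD1 (48.6 ± 10.0 and 53.6 ± 6.74) could not be placed in order, because their ranges overlapped and each was above the next in 4 of 6 libraries. The ligase subunits lay below them, GCLM at 28.4 ± 1.40 in siANXA1 and 26.5 ± 4.31 in siControl and GCLC at 19.9 ± 2.89 and 18.5 ± 0.854. The regulatory subunit GCLM was above the catalytic subunit GCLC in all 6 libraries. GPX1 and HMOX1 were at or near 0.

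**Figure D1:**
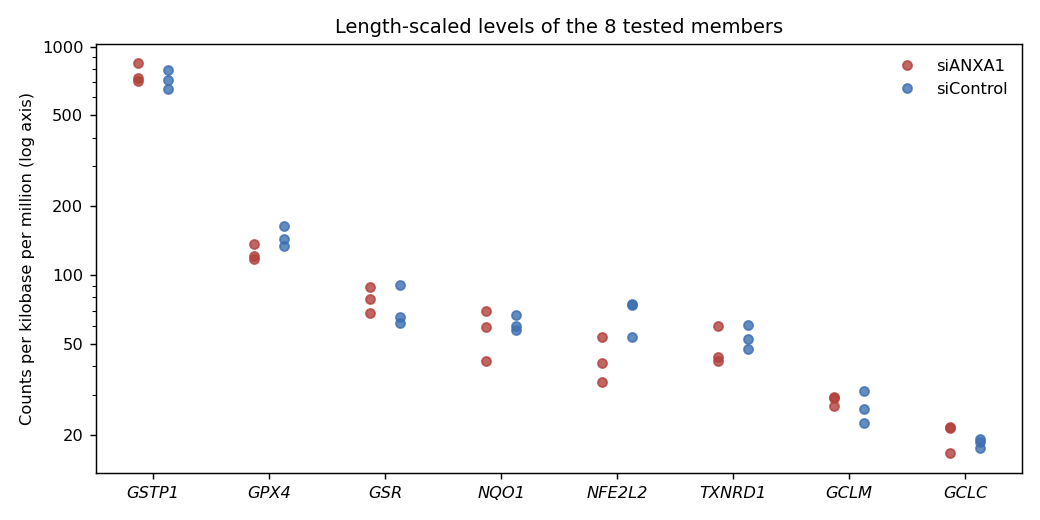
Length-scaled levels of the 8 tested genes in CPM per kb (log axis), with siANXA1 libraries on the left and siControl libraries on the right of each gene, 1 point per library. GSTP1 stood above GPX4 and GSR in all 6 libraries, and GCLC was the lowest of the 8.

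No gene of the 8 tested passed the threshold of an edgeR adjusted p of 0.05, against 0.0111% of all 17947 genes tested (2 genes, both higher). At an unadjusted edgeR p under 0.05 there was 1 of 8, NFE2L2, against 7.93% of all genes (3.4% higher and 4.52% lower). The siANXA1 and siControl libraries did not overlap in 1 of 8, again NFE2L2, against 14.6% of all genes (7.41% higher and 7.24% lower), so these shares are close to those of genes in general. DESeq2 called 0 of the 8, against 0.834% of its 19180 genes with an adjusted p, and limma-voom called 0, against 0.0167%. The median log2 fold change of the 8 was -0.00, with 4 positive and 4 negative, beside 0.01 over all genes tested.

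**Figure D2:**
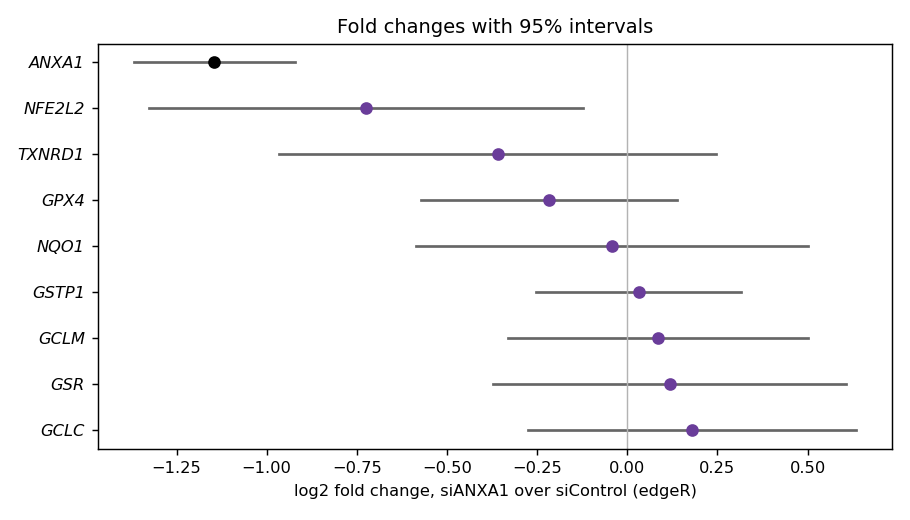
Log2 fold change of siANXA1 over siControl with its 95% interval from edgeR's quasi-likelihood fit, for ANXA1 and the 8 tested genes. The interval lay below 0 for ANXA1 and NFE2L2 and included 0 for the other 7 genes.

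NFE2L2, which encodes NRF2 itself, read 80.0, 106 and 142 CPM in siANXA1 replicates 1 to 3 and 200, 196 and 146 CPM in siControl replicates 1 to 3. Every siANXA1 library was below every siControl library, but siANXA1 replicate 3 and siControl replicate 3 nearly met. The means were 109 ± 30.9 and 181 ± 30.2 CPM (SD, n = 3 each), a log2 fold change of -0.72 (SE 0.25; 95% interval -1.33 to -0.12) that did not pass the threshold (edgeR adjusted p = 0.62). By exact permutation, two-sided, p was 0.1, and no smaller value can be had with 3 libraries in each group. Within each side of that component, siANXA1 minus siControl was -0.90 in log2 CPM for siANXA1 replicate 2 against siControl replicates 1 and 2, and -0.45 for siANXA1 replicates 1 and 3 against siControl replicate 3. NFE2L2 occupies chr2:177227595-177392697 (GRCh38, minus strand). NFE2L2 had both the largest spread over the 6 libraries and the largest fold change of the 8 genes. Among 10679 other genes with a mean of 5 CPM or more, those with the most similar profile over the 6 libraries were IL13RA1, DDAH2 and DUSP22, at root mean square distances of 0.14, 0.14 and 0.14 in centred log2 CPM.

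**Figure D3:**
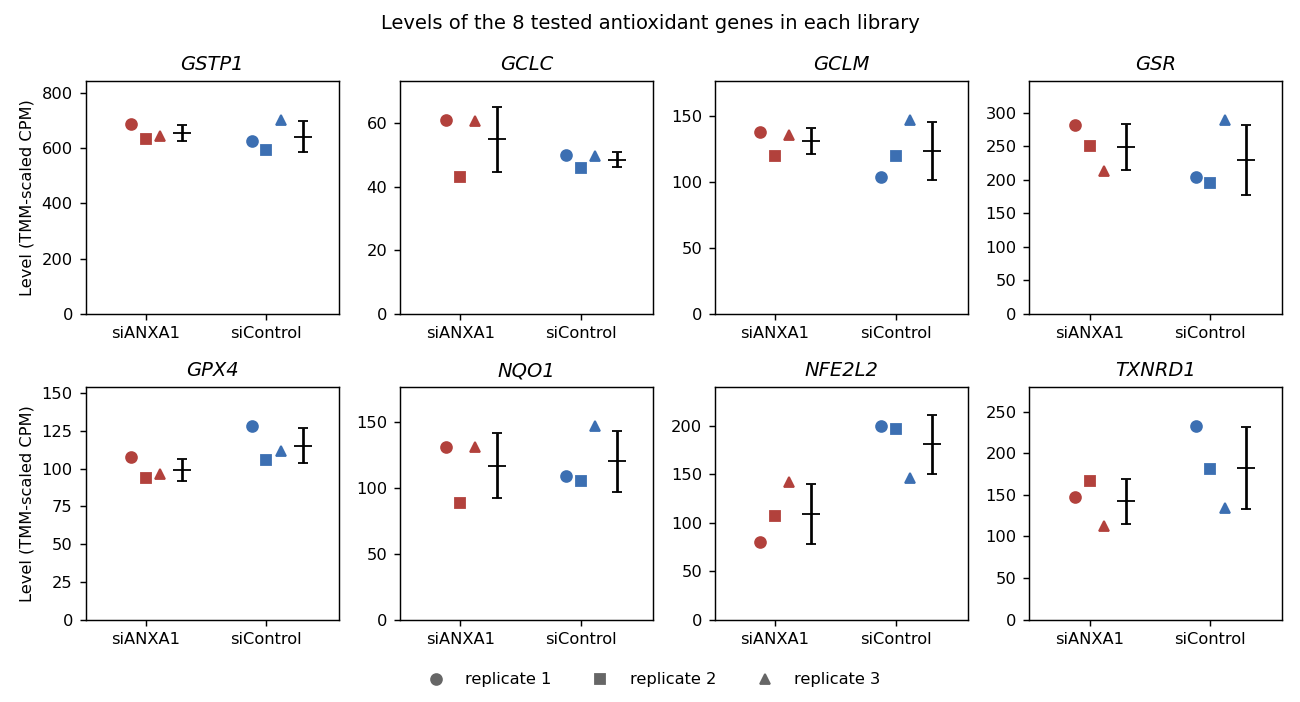
Level in TMM-scaled CPM of each of the 8 tested genes, with siANXA1 libraries (red) left of siControl libraries (blue), point shapes for replicates 1 to 3, and the mean ± SD of 3 libraries as a black bar. In NFE2L2 the siANXA1 libraries, at 80.0 to 142 CPM, lay below the siControl libraries, at 146 to 200 CPM, and in the other 7 panels the groups overlapped.

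By the transcript estimates, the longest coding transcript of NFE2L2 was lower in siANXA1. The gene totals of siANXA1 replicate 3 and siControl replicate 3 nearly met, at 142 and 146 CPM, though their estimates of this transcript differed. ENST00000397062 read 16.6, 71.1 and 46.3 CPM in siANXA1 replicates 1 to 3 and 138, 164 and 93.4 CPM in siControl replicates 1 to 3. The groups did not overlap, as was so for 13.3% of the 18144 single transcripts with a mean of 5 CPM or more. Its share of the gene's counts was 20.8%, 66.8% and 32.7% in siANXA1 and 69.3%, 83.4% and 64.0% in siControl, so that only siANXA1 replicate 2 reached the siControl range. The transcripts with the later start codon, ENST00000397063 and ENST00000446151, together read 60.6, 31.6 and 93.6 CPM in siANXA1 and 57.9, 27.4 and 50.8 CPM in siControl. These overlapped between the groups. ENST00000446151 was estimated in siANXA1 replicate 1 alone, with 2193 counts there and 0 in each of the 5 other libraries. Counts of overlapping transcripts are estimates that can move between near-identical models, so the single transcripts are given as a description with no test.

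**Figure D4:**
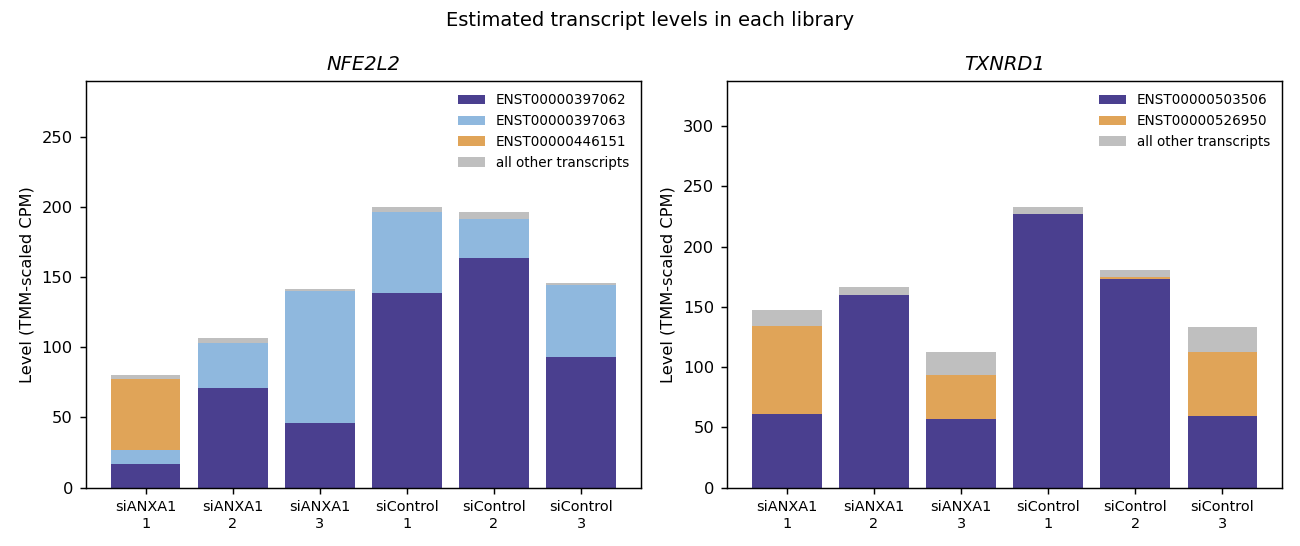
Estimated transcript levels in TMM-scaled CPM, stacked to the gene's total, for NFE2L2 and TXNRD1 in the 3 siANXA1 libraries and then the 3 siControl libraries. NFE2L2 transcript ENST00000397062 stood at 16.6 to 71.1 CPM in siANXA1 and 93.4 to 164 CPM in siControl, whereas TXNRD1 transcript ENST00000526950 was found in siANXA1 replicates 1 and 3 and siControl replicate 3 and at or near 0 in the 3 other libraries.

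GCLC, the catalytic subunit of glutamate-cysteine ligase, read 61.1, 43.1 and 60.7 CPM in siANXA1 replicates 1 to 3 and 50.2, 45.9 and 49.6 CPM in siControl replicates 1 to 3. The siANXA1 libraries lay on both sides of the siControl libraries (log2 fold change 0.18 ± 0.19 (SE); edgeR adjusted p = 0.797). GCLM, the subunit that raises the affinity of the enzyme for glutamate, read 138, 120 and 136 CPM in siANXA1 and 104, 120 and 147 CPM in siControl (log2 fold change 0.09 ± 0.17 (SE); edgeR adjusted p = 0.887). The GCLM groups overlapped, and siControl replicates 1 and 3 were its lowest and highest libraries. The 95% intervals reached from -0.28 to 0.64 for GCLC and from -0.33 to 0.50 for GCLM. GCLC occupies chr6:53497341-53616970 and GCLM chr1:93885205-93909456 (GRCh38, minus strand).

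The estimates of single GCLC transcripts are given as a description, with no test. The transcripts ENST00000229416 and ENST00000650454, which both code over 1914 bases and have 484 and 456 bases before the start codon, together read 34.6, 7.08 and 35.7 CPM in siANXA1 and 5.53, 5.88 and 5.33 CPM in siControl. ENST00000509541, with 1086 coding bases, read 4.53, 14.2 and 3.90 CPM in siANXA1 and 19.5, 17.4 and 19.5 CPM in siControl. For ENST00000509541 the groups did not overlap, as in 13.3% of the single transcripts averaging at least 5 CPM. The summed pair did not overlap either, but that share is not the background of a sum. Taken singly, each transcript of the pair overlapped between the groups. For the pair and for ENST00000509541, siANXA1 replicate 2 was the siANXA1 library nearest to siControl. Within the longer pair, siANXA1 replicate 1 had 1497 counts in ENST00000229416 and 6 in ENST00000650454, and siANXA1 replicate 3 had 15 and 1294, so the estimates passed from one model to the other between libraries of the same group. The pair was added up after its values were seen. GCLM was read almost wholly as ENST00000370238, at 91.4% to 97.7% of its counts over the 6 libraries.

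GSR, which returns oxidised glutathione to its reduced form with NADPH, read 282, 251 and 213 CPM in siANXA1 and 204, 195 and 289 CPM in siControl. Here siControl replicate 3 was the highest library and the other 2 siControl libraries the lowest (log2 fold change 0.12 ± 0.20 (SE); edgeR adjusted p = 0.868). At least 97.9% of its counts in every library fell on ENST00000221130. The sign of the GSR difference depended on which libraries were set against each other: it was 0.33 in log2 CPM on the side of siControl replicates 1 and 2 and -0.24 on the side of siControl replicate 3.

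GSTP1, a transferase studied for its part in resistance to alkylating drugs, read 688, 634 and 645 CPM in siANXA1 and 627, 593 and 703 CPM in siControl. It was the steadiest of the 8 genes, at 0.03 ± 0.12 (SE) on the log2 scale (edgeR adjusted p = 0.942). Its 95% interval from -0.25 to 0.32 leaves out a change of 2-fold in either direction. The intervals of the other tested genes did so too, apart from that of NFE2L2. The sign of GSTP1 turned under upper quartile scaling. The main coding transcript ENST00000398606 held 50.3% of the GSTP1 counts in siANXA1 replicate 1 and 71.9% to 82.2% in the 5 other libraries. In that library ENST00000467591, a retained intron transcript, held 14.8%, against at most 7.40% elsewhere. GSTP1 occupies chr11:67583595-67586656 (GRCh38, plus strand).

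NQO1, a quinone reductase and a widely used readout of NRF2 activity, read 131, 88.3 and 131 CPM in siANXA1 and 109, 105 and 147 CPM in siControl. The groups overlapped in part, with siANXA1 replicate 2 the lowest library and siControl replicate 3 the highest, and siANXA1 over siControl was -0.04 ± 0.23 in log2 (SE; edgeR adjusted p = 0.963; 95% interval -0.58 to 0.50). The 3 highest libraries, siANXA1 replicates 1 and 3 and siControl replicate 3, were those of 1 side of the principal component. Its main transcript ENST00000320623 read 64.1, 65.4 and 100 CPM in siANXA1 and 64.9, 53.2 and 109 CPM in siControl. NQO1 occupies chr16:69706996-69726951 (GRCh38, minus strand).

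Of the selenoproteins, GPX4, the peroxidase that reduces lipid hydroperoxides in membranes and holds back ferroptosis, read 107, 93.8 and 96.2 CPM in siANXA1 and 128, 106 and 112 CPM in siControl. Only siANXA1 replicate 1 reached into the siControl range, just above siControl replicate 2. The log2 fold change was -0.22 ± 0.15 (SE; edgeR adjusted p = 0.711; 95% interval -0.57 to 0.14). ENST00000611653, whose selenocysteine codon is printed above, held 68.1% to 84.2% of its counts. GPX4 occupies chr19:1103926-1106791 (GRCh38, plus strand).

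GPX1, the cytosolic peroxidase of hydrogen peroxide, was almost without counts, with 17, 0 and 0 in siANXA1 and 1, 12 and 7 in siControl. It did not pass the filter, and no fold is given. The deposited annotation calls the GPX1 gene a polymorphic pseudogene and lists 4 of its 6 transcripts as coding. Rows without a gene held 16.9% to 17.7% of each library's counts, and whether any of them came from GPX1 was not tested. GPX1 occupies chr3:49357171-49358600 (GRCh38, minus strand).

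TXNRD1, the cytosolic thioredoxin reductase, read 147, 167 and 112 CPM in siANXA1 and 233, 181 and 134 CPM in siControl. The groups overlapped, since siControl replicate 3 was below siANXA1 replicates 1 and 2, and the log2 fold change was -0.36 ± 0.25 (SE; edgeR adjusted p = 0.718; 95% interval -0.97 to 0.25). Without siControl replicate 1 it was -0.15 (edgeR adjusted p = 0.999). TXNRD1 occupies chr12:104215779-104350305 (GRCh38, plus strand).

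Its transcripts divided the libraries across the groups. ENST00000526950 read 72.5, 0 and 36.4 CPM in siANXA1 replicates 1 to 3 and 0, 1.54 and 53.1 CPM in siControl replicates 1 to 3. ENST00000503506 read 61.2, 160 and 57.2 CPM in siANXA1 and 227, 173 and 59.8 CPM in siControl. ENST00000526950 thus held 32.4% to 49.2% of the TXNRD1 counts in siANXA1 replicates 1 and 3 and siControl replicate 3, the libraries on 1 side of the first principal component, and at most 0.852% in the 3 libraries on the other. ENST00000526950 starts at 104309851, inside the gene, and ENST00000503506 at 104286682. Within a side the groups were close for ENST00000503506 on the side of siControl replicate 3, at 61.2 and 57.2 CPM in siANXA1 and 59.8 CPM in siControl.

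HMOX1, the inducible enzyme that opens the heme ring, had 0 counts in each siANXA1 library and 0, 2 and 0 counts in siControl replicates 1 to 3. A count of 0 allows up to 3 counts, which is 0.0690, 0.137 and 0.0819 CPM in siANXA1 replicates 1 to 3 and 0.0718 and 0.0898 CPM in siControl replicates 1 and 3, for counting error only. Both groups were thus at or under that floor and no fold is given. HMOX2, the constitutive enzyme, chosen with its values known, read 77.0, 47.6 and 75.2 CPM in siANXA1 and 43.3, 38.2 and 69.1 CPM in siControl (edgeR adjusted p = 0.734). The highest libraries of HMOX2, siANXA1 replicates 1 and 3 and siControl replicate 3, share a side of the first principal component. HMOX1 occupies chr22:35380361-35394214 (GRCh38, plus strand).

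Around these genes, 12 lists of pathway genes were described, which held 207 genes besides the 10. Of 179 tested, edgeR called 0. At an unadjusted p under 0.05 there were 5 higher and 17 lower in siANXA1, 12.3% of them, against 7.93% of all genes. DESeq2 called 2 genes, NFE2L1 and GGT5, against 0.834% of all genes with an adjusted p from it. The groups did not overlap in 12 higher and 17 lower, 16.2%, against 14.6% of all genes. Their median log2 fold change was -0.05, beside 0.01 over all genes.

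Of the partners and regulators of NRF2, 20 of 20 were tested, 13 of them negative, with a median of -0.10 (0.02 without siANXA1 replicate 2) and 0 past the edgeR threshold. NFE2L1, which encodes the related factor NRF1, read 27.1, 19.1 and 20.9 CPM in siANXA1 and 64.9, 52.4 and 180 CPM in siControl. The groups did not overlap, and siControl replicate 3 was far above the other siControl libraries (log2 fold change -2.14; edgeR adjusted p = 0.605; DESeq2 adjusted p = 0.00634). NFE2L3, another factor of the family, read 35.4, 34.3 and 34.6 CPM in siANXA1 and 44.4, 47.0 and 51.9 CPM in siControl (edgeR adjusted p = 0.607). The most abundant of the list, SQSTM1, an autophagy receptor that binds KEAP1, and the acetyltransferase gene EP300 had log2 fold changes of -0.04 and 0.02. KEAP1 itself, chosen with its values known, read 142, 70.0 and 118 CPM in siANXA1 and 60.1, 49.2 and 106 CPM in siControl (edgeR adjusted p = 0.686). Its highest libraries, siANXA1 replicates 1 and 3 and siControl replicate 3, share a side of the first principal component.

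Of 35 other NRF2 target genes, 30 were tested, 12 positive and 18 negative, with a median of -0.08 and 0 called. The ferritin light chain gene FTL read 6004, 5802 and 5353 CPM in siANXA1 and 4784, 4432 and 5192 CPM in siControl, without overlap (log2 fold change 0.25; edgeR adjusted p = 0.627). The heavy chain gene FTH1 stood at 0.00 on the same scale. ABCC4, an exporter of nucleotides and drugs, read 116, 114 and 117 CPM in siANXA1 and 76.5, 86.7 and 90.8 CPM in siControl, again without overlap (log2 fold change 0.45; edgeR adjusted p = 0.605). TXNRD3 had a log2 fold change of -0.87 (edgeR adjusted p = 0.627).

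Glutathione synthesis, breakdown and cysteine supply, a list that includes GCLC, GCLM and GSR, had 28 of 31 genes tested, 9 positive and 19 negative, and a median of -0.45 with 0 called. GGT5, a gamma-glutamyl transferase, was low throughout, at 0.115, 0.137 and 0.0546 CPM in siANXA1 and 2.56, 1.04 and 0.988 CPM in siControl (edgeR adjusted p = 0.425; DESeq2 adjusted p = 0.000203). GGCT, which breaks down gamma-glutamyl dipeptides, read 128, 142 and 128 CPM in siANXA1 and 97.1, 110 and 87.0 CPM in siControl (log2 fold change 0.43; edgeR adjusted p = 0.617). The glutamine transporter gene SLC1A5 and the glyoxalase gene GLO1, the most abundant, had log2 fold changes of -0.46 and -0.49. With the component's side in the model the median of the list was -0.10, and without siANXA1 replicate 3 it was -0.26. SLC7A11, the cystine transporter gene, chosen with its values known, read 87.1, 217 and 81.7 CPM in siANXA1 and 345, 405 and 24.8 CPM in siControl, and CTH, the enzyme that releases cysteine from cystathionine, read 22.9, 83.6 and 21.2 CPM in siANXA1 and 174, 145 and 24.8 CPM in siControl. Both were highest in the 3 libraries of 1 side of that component, siANXA1 replicate 2 and siControl replicates 1 and 2.

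**Figure D5:**
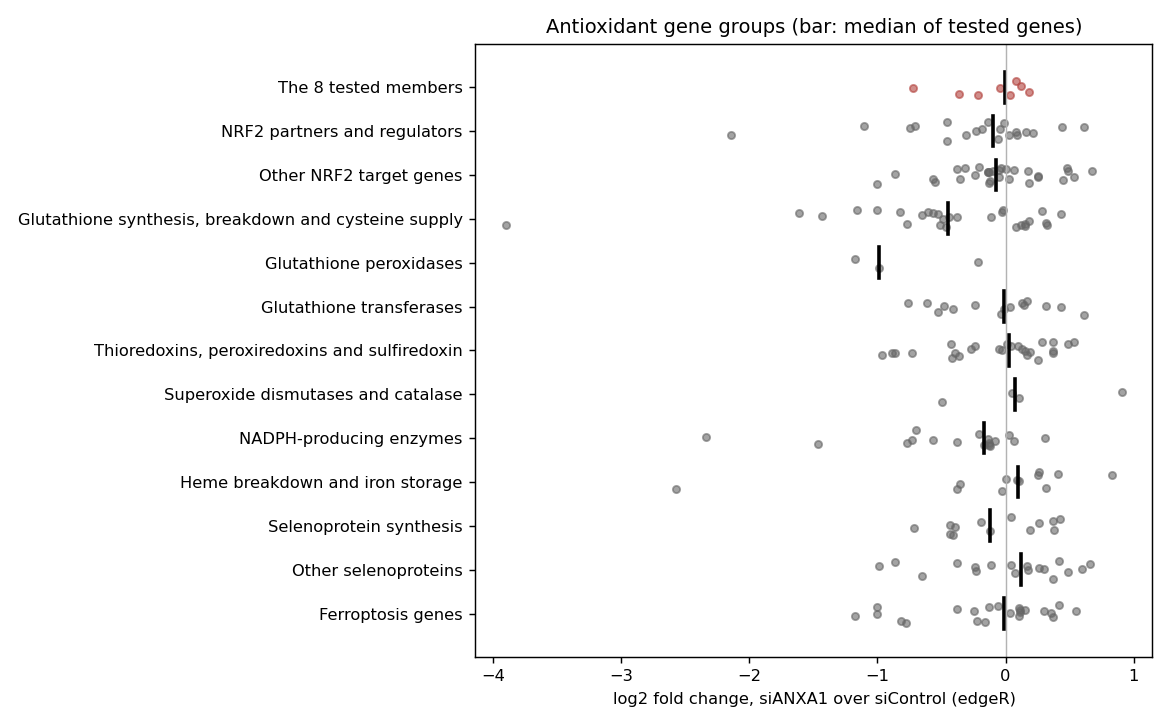
Log2 fold change of siANXA1 over siControl (edgeR) for every tested gene of each antioxidant list, 1 point per gene, with a black bar at the median. The medians lay between -0.99 for the 3 tested glutathione peroxidases and 0.12 for other selenoproteins (18 tested). The latter was -0.0056 without siControl replicate 2, where 19 were tested, and no point passed the threshold.

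Of 8 glutathione peroxidases, 3 were tested, all negative, with a median of -0.99 (-0.46 with the component's side in the model). Without siControl replicate 3 the filter passed 5 peroxidases, and the median was then GPX4's own value of -0.24, so these medians cover different genes. In the fit to all libraries, the genes tested besides GPX4 were GPX8 and GPX3, at no more than 5.29 and 0.766 CPM in any library. Of 24 glutathione transferases, 15 were tested, 7 positive and 8 negative, with a median of -0.01. After GSTP1, GSTO1 and GSTK1 were the most abundant, with log2 fold changes of 0.13 and 0.15, and MGST2 and GSTM4 had the lowest p, with -0.48 and -0.61 (edgeR adjusted p = 0.627 for both).

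The thioredoxin and peroxiredoxin list had 14 positive and 12 negative of 26 tested, with a median of 0.03. PRDX1, a peroxiredoxin that NRF2 also induces, read 1044, 769 and 919 CPM in siANXA1 and 466, 575 and 841 CPM in siControl (log2 fold change 0.54; edgeR adjusted p = 0.641). Its highest libraries, siANXA1 replicates 1 and 3 and siControl replicate 3, were those of 1 side of the first principal component. PRDX6 had a log2 fold change of 0.04. TXNIP, the inhibitor of thioredoxin, read 380, 597 and 412 CPM in siANXA1 and 892, 936 and 475 CPM in siControl (edgeR adjusted p = 0.627). It was highest in siANXA1 replicate 2 and siControl replicates 1 and 2, which share a side of the first principal component. Among superoxide dismutases and catalase, with 3 of 4 tested genes positive and a median of 0.08, the mitochondrial enzyme gene SOD2 read 46.3, 63.7 and 65.7 CPM in siANXA1 and 39.8, 24.0 and 29.9 CPM in siControl, without overlap (log2 fold change 0.91; edgeR adjusted p = 0.605). SOD1, CAT and CCS stood at 0.10, 0.05 and -0.49 on the log2 scale.

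GSR, NQO1 and TXNRD1 depend on NADPH. The list for NADPH held enzymes that make it and others of its supply, such as TKT and NADK2, which do not make it themselves. In this mixed list 14 of 17 tested genes were negative, against 49.5% of all genes, with a median of -0.17 and 0 called. The median was -0.40 with protein coding transcripts only, -0.35 with the most abundant transcript of each gene and -0.26 without siANXA1 replicate 1. IDH1 read 96.2, 181 and 98.4 CPM in siANXA1 and 396, 503 and 138 CPM in siControl (log2 fold change -1.46; edgeR adjusted p = 0.624). Its highest libraries, siANXA1 replicate 2 and siControl replicates 1 and 2, were those of 1 side of the first principal component. NADK2, the mitochondrial NAD kinase gene, read 94.2, 88.1 and 86.3 CPM in siANXA1 and 111, 123 and 116 CPM in siControl, without overlap. PGD and TKT, of the pentose phosphate pathway, had log2 fold changes of -0.21 and -0.12.

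Of the genes for heme breakdown and iron storage, 8 of 12 tested were positive (median 0.10). BLVRA, which reduces biliverdin, had a log2 fold change of -0.38 and ACO1, the iron-sensing aconitase, 0.32, both without overlap between the groups (edgeR adjusted p = 0.627 each). The machinery that inserts selenocysteine had 6 positive and 7 negative of 13 tested (median -0.12), with LRP8, a selenoprotein P receptor, at -0.72 and SECISBP2L at -0.44 without overlap, and the abundant RPL30 and NCL at -0.19 and 0.38. Other selenoproteins had 11 positive and 7 negative of 18 tested (median 0.12). The median was -0.0056 without siControl replicate 2, where 19 were tested, and 0.011 without siANXA1 replicate 3. Among them were SELENON at -0.65 and SELENOK at 0.66, both without overlap, and SEPHS2 and SELENOI at 0.04 and 0.17. Ferroptosis genes had 11 positive and 11 negative (median -0.01), with FANCD2 at -1.17, CISD1 at 0.55, NCOA4 at 0.10 and TFRC at -0.25. None of these genes passed edgeR's adjusted threshold.

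The antioxidant response element to which NRF2 binds has the core TGACNNNGC. This core was sought on both strands, and its matches may overlap AP-1 sites, which share TGAC. RefSeq promoter windows (GRCh38.p14, 250 bases before to 50 bases after a start) were found for 8 of the 10 genes, in 12 windows. HMOX1 and GSR had no window. The core was present in 4 of these 12 windows, of GSTP1, GCLM and TXNRD1, and in 13.3% of all 35116 promoter windows. Elements outside the windows were not sought, so genes without a match, NQO1 and GCLC among them, may still have one further away. The matches are shown 5′ to 3′ on the gene's strand, with the core in capitals and 10 bases on either side, so that the letters can be compared between the 3 genes.
GSTP1, chr11:67583736-67583764, plus strand: gccggcgccgTGACTCAGCactggggcgg
GCLM, chr1:93909446-93909474, minus strand, core on the opposite strand: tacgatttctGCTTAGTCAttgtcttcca
TXNRD1, chr12:104286920-104286948, plus strand, core on the opposite strand: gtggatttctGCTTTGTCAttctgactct
TXNRD1, chr12:104215670-104215698, plus strand: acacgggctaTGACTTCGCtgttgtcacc
TXNRD1, chr12:104215761-104215789, plus strand, core on the opposite strand: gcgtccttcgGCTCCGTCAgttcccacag
A match is only a run of letters. GSTP1 and GCLM, with 1 match each, had positive log2 fold changes of 0.03 and 0.09, and TXNRD1, with matches in both of its windows, had -0.36, none past the threshold. The TXNRD1 matches at chr12:104215670 and chr12:104215761 lie beside the start at 104215779, which was hardly used in these libraries. Of the transcripts from that start, ENST00000429002 had at most 1 count in a library and ENST00000525566 had 0 in each.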

How the data were processed

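Per the labels' protocols, total RNA from 6 cell pellets was extracted with Trizol and sequenced from TruSeq libraries. What the authors deposited are estimated counts of each transcript, as unnormalized whole numbers, in 2 tables that share 1335690 values. No aligner, counter or strand setting is stated in the labels. The submitters' processing notes name only mm10, a mouse build, but all 206601 Ensembl transcripts were found in GENCODE 29 (GRCh38). The 16014 entries with no gene, with 16.9% to 17.7% of counts, stayed out.

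Counts were summed per gene, and edgeR 4.0.16 was run in R 4.3.3 (filterByExpr, TMM, robust quasi-likelihood test, group as the only term, two-sided, Benjamini-Hochberg over 17947 genes, threshold 0.05). Log2 CPM used a prior count of 2. DESeq2 1.42.0 and limma-voom (limma 3.58.1) were alternatives, with 2 other scalings, 2 other filters (none, or at least 10 counts in each of 3 libraries with mean CPM of 5), 2 other transcript sums, the replicate block, the principal component side and each library left out. No set test was run.

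Members and lists were chosen with earlier results of these data known. Named genes were all members, ANXA1, and per list every called gene or the 2 most abundant and the 2 with the lowest p, plus the 3 marker genes with the highest mean per marker list and the 3 genes nearest in profile to the member with the largest spread or fold change. Of the marker genes these were FCRLA, RAG1 and CIITA (at most 20.6, 10.4 and 3.00 CPM), HBE1, TFRC and HBG2 (at most 3286, 2116 and 880 CPM), CD3D, CD3G and NKG7 (at most 34.8, 2.70 and 1.12 CPM), and CD68, LYZ and CD33 (at most 65.4, 40.3 and 12.1 CPM).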

Additional observations from a re-analysis of the deposited data

How the results depend on the processing

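Of 128 values of the 8 tested genes under the alternatives, 0 passed the threshold, and the lowest adjusted p was 0.195 (NFE2L2 without siControl replicate 3). NFE2L2, TXNRD1, GPX4 and GSR kept their direction in all 16 alternatives each, but GSR was 0.0045 without siControl replicate 2 and 0.32 without siControl replicate 3. NFE2L2 moved from -0.54 without siANXA1 replicate 1 to -1.57 with the most abundant transcript per gene. The log2 fold change of GSTP1 turned to -0.022 with upper quartile scaling, -0.047 with protein coding transcripts only, -0.15 with the most abundant transcript and -0.012 with the principal component side as covariate. With the most abundant transcript that of GCLC was -1.32 and that of NQO1 0.0098, and with the side as covariate that of GCLM was -0.0032. Leaving out 1 library gave -0.031 to 0.10 for GSTP1, 0.10 to 0.33 for GCLC, -0.031 to 0.22 for GCLM and -0.14 to 0.13 for NQO1. The cause was not tested. ANXA1 passed the threshold with DESeq2 (-1.15), limma-voom (-1.15), the strict filter (-1.17), the side as covariate (-1.14) and without siControl replicate 3 (-1.14; edgeR adjusted p = 0.0487), and ranged from -1.16 to -1.11 without 1 library. The count of called genes, 2 here, was 160 with DESeq2, 5 with the side as covariate, 1 with the most abundant transcript and 0 with protein coding transcripts only, and 0 to 7 without 1 library (0 without siANXA1 replicate 1, 2 or 3 or siControl replicate 2, and 7 without siControl replicate 3). With the replicate block it was 0. Same-numbered libraries had correlations of deviations of -0.11, 0.26 and 0.26 for replicates 1 to 3, and differently numbered ones -0.36 to 0.23. The values of replicates 2 and 3 were thus the highest of any pair, whereas siANXA1 replicate 1 was nearest to siControl replicate 3. These values do not settle whether the numbers mark pairs, and the main fit did not pair them. Of 192 medians of the 12 lists, 165 moved by less than 1 SD between libraries. The medians of NRF2 partners, other NRF2 targets, transferases, thioredoxins, other selenoproteins and ferroptosis genes changed sign under at least 1 alternative. The genes tested in a list could differ between alternatives.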
